A study of Rattus norvegicus with 24 samples.

Results

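The genes described here are the nuclear genes of the respiratory chain and ATP synthase, the enzyme complexes of the inner mitochondrial membrane. Members were taken by symbol alone, as every gene whose name begins with Nduf, Uqcr, Cox4 to Cox8 or Atp5, together with Sdha, Sdhb, Sdhc, Sdhd and Cyc1. The rule found 93 of the 21767 gene symbols in the deposited table, and 88 of them were among the 14303 genes with enough counts to test. Of the 93, 79 were sorted as structural subunits, 10 as assembly or regulatory factors and 4 as copies or relatives of a subunit gene. The structural subunits comprised 35 of complex I, 4 of complex II, 9 of complex III, 17 of complex IV and 14 of complex V. These numbers count symbols found in the deposited table. Ndufs6, Cox7a2, Atp5f1c and Atp5pb were not among them, so complexes I, IV and V are not whole here. The 5 members left untested were Cox7a1, with 36 counts over all libraries, Cox7b2, Cox8c, Cox6c-ps1 and Ndufa10l1.

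Complex I takes electrons from NADH and complex II from succinate. Ubiquinone carries them to complex III, cytochrome c carries them on to complex IV, and complex IV hands them to oxygen. Complexes I, III and IV pump protons, and complex V, the ATP synthase, uses the gradient to make ATP. All but complex II are built from nuclear and mitochondrially encoded subunits, and heart muscle, which lives on oxidative metabolism, holds these complexes in great amount. Assembly factors help to build a complex without staying in it.

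RNA was sequenced from cultured ventricular heart muscle cells of newborn Sprague-Dawley rats, in 24 libraries that made 8 groups of 3. The cells received a microRNA mimic, a synthetic double-stranded RNA that acts as the mature microRNA, and 48 h later doxorubicin or control treatment for 24 h. The 4 mimic conditions, each with and without doxorubicin, were a negative control mimic, a mimic of miR-222-3p, a mimic of miR-455-3p, and both of these. Doxorubicin is an anthracycline cancer drug that is toxic to the heart. Each mimic was given at 5 nM. Whether a second, inert mimic was added to wells with a single one is not stated. Doxorubicin is given as 4 uM in the sample protocol, while the series' design text writes mM. Nothing says which cultures or litters the replicates came from, so the p-values measure the spread between these libraries, which may be technical.

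Both mimics act through the seed, bases 2 to 8 of the mature strand, which pairs with target transcripts. The mature sequences are shown to say what the mimics stand for, with the seed in capitals (RefSeq, build GRCr8). Matches to the seeds in the members' transcripts were not searched here. The seeds GCUACAU and CAGUCCA differ. The bases of the first mature strand lie at chrX:6022682-6022702 and those of the second at chr5:81704881-81704902, both on the plus strand.
rno-miR-222-3p: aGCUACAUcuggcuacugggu
rno-miR-455-3p: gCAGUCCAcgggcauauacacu

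The promoters of 4 subunit genes that rose with doxorubicin and the control mimic are shown. Each of the 4 holds a marked string, which most members' promoters did not. The windows are the 300 bases from 250 before to 50 after the annotated start (RefSeq, GRCr8). Capitals mark matches, on either strand, to letters bound by factors known to act on mitochondrial genes: GCATGCGC for NRF1, CCGGAAGT for GABPA and other ETS factors, ATGGCGGC for YY1 and TCAAGGTCA for ESRRA. None of these strings contains another. Uqcrc1 lies at chr8:118467973-118468272 on the plus strand, with NRF1 letters from 39 bases before the start and YY1 letters from 2 bases after it. Sdhb lies at chr5:158547684-158547983 on the plus strand, with NRF1 letters from 167 bases before and YY1 letters from 20 bases after the start. Sdhd lies at chr8:59850592-59850891 on the minus strand, with ESRRA letters from 35 bases after the start. Atp5mg lies at chr8:54130358-54130657 on the minus strand, with NRF1 letters from 243 bases before the start.
Uqcrc1: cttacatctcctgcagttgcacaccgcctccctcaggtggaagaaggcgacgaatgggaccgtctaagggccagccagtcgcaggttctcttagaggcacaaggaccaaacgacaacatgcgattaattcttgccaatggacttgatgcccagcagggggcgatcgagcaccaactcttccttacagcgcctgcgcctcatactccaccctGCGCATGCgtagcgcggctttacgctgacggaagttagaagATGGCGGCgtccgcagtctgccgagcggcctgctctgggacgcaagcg
Sdhb: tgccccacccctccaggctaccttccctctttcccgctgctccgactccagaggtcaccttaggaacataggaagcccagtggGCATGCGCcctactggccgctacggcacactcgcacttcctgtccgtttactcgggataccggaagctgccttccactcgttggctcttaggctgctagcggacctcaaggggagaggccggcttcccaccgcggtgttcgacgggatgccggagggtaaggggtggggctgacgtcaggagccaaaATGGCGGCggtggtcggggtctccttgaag
Sdhd: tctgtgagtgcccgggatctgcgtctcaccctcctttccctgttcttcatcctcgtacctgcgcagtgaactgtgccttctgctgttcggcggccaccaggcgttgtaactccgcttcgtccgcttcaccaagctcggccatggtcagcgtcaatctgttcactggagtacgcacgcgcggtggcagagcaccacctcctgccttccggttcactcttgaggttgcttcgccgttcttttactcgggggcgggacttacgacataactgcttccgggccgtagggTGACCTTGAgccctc
Atp5mg: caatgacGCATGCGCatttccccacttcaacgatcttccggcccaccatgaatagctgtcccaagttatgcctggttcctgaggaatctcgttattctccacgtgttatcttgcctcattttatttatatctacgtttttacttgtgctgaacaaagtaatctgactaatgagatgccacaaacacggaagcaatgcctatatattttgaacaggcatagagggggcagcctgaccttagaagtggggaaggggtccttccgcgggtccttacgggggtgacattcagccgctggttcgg

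Promoters were matched for 79 of the 93 members, and 28 of these (35.4%) held at least 1 of the 4 letter strings, against 13.3% of the 15175 promoters of genes in the count table and 8.59% of all 33469 promoters. The NRF1 letters were in 13.9% of the members' promoters, 3.95% of those of genes in the count table and 2.47% of all. For the ETS letters the shares, in that order, were 10.1%, 5.94% and 3.81%, for the YY1 letters 15.2%, 4.26% and 2.53%, and for the ESRRA letters 2.53%, 0.336% and 0.433%. The YY1 letters were in 8 of 32 promoters of complex I subunits and in none of the 14 of complex IV or the 12 of complex V, while the NRF1 letters were in 4 of the 12 of complex V. Strings were not confined to members that rose. NRF1 letters lay before the start of Ndufaf4, the member that fell with doxorubicin and the control mimic. ETS letters lay before the start of Ndufb7, which had a value below 0 in that comparison and was not called. The YY1 letters begin with ATG, and most of their matches lay on the gene's own strand, 2 to 29 bases after the start. Whether these are the first coding bases was not checked. All matches describe letters only. The shares were not tested, and letters that are absent from a window say nothing about a factor.

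Levels below are CPM, a gene's counts scaled to a common library size with TMM factors (trimmed means that make libraries comparable), listed for replicates 1, 2 and 3 in that order. Lengths were not used, so levels are compared between libraries and not between genes. A value after ± is the standard error (SE) of the log2 fold change before it, and a gene is said to rise or fall where the quasi-likelihood F test gave an adjusted p under 0.05 over all 14303 genes. Libraries held 17311949 to 25750309 counts, and 11469 to 13524 genes had at least 10 counts. Several libraries stood apart. Replicate 1 of doxorubicin with the control mimic held the fewest genes and 38.2% mitochondrially encoded counts, where the lowest share in any library was 5.54%. Next in order of few genes were replicate 2 of doxorubicin with both mimics, then, without doxorubicin, replicate 1 of the control mimic and replicate 3 of both mimics. Counts of members are given with these 4 libraries and after leaving them out. In the other direction, replicates 1 and 2 of miR-222 alone, 1 and 3 of miR-455 alone, 1 and 2 of both mimics alone and all 3 of doxorubicin with miR-455 lay very close: chi-square per degree of freedom was 5.79 to 9.79 for these pairs and 51.4 to 575 for all others. Even the close pairs differed by more than counting noise, so all were kept as separate libraries. That excess cannot tell separate cultures from separate preparations of 1 culture.

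Markers fixed for the cell types of such cultures were checked. The 11 cardiomyocyte markers measured summed to 26400 to 29700 CPM with the control mimic alone and 32300 to 38700 with doxorubicin added, and over all 24 libraries the sum ran from 20400 to 69100 CPM. The 8 fibroblast markers summed to 19200 to 29800 and 23200 to 52900 CPM. The 8 smooth muscle and pericyte markers summed to 3150 to 3870 and 1920 to 4360 CPM. The 5 endothelial markers, mostly Kdr and Tek, summed to 43.9 to 66.6 and 27.1 to 36.2 CPM, with Emcn at or near 0, and the 6 leukocyte markers to at most 4.95 CPM in either group, with Adgre1 and Ptprc below 1 CPM. Between these groups 3 of 11 tested cardiomyocyte markers rose and 1 fell, as did 1 and 1 of 8 for fibroblasts, 1 and 1 of 7 for smooth muscle, none and 1 of 4 for endothelium, and none of 4 for leukocytes. Of all tested genes 15.2% rose and 12.3% fell in this comparison. The part of the marker shifts in the results below was not tested. In such bulk samples fewer cells of a type and less RNA per cell cannot be told apart.

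With the control mimic, doxorubicin raised 69 of the 88 tested members and lowered 1, against 27.5% of all tested genes called in either direction, 15.2% higher and 12.3% lower. The median log2 fold change of the members was 1.75, and that of all tested genes was 0.02. Together the 93 genes took 1.49%, 1.79% and 2.07% of the counts without doxorubicin and 3.55%, 4.13% and 5.29% with it. The 2 groups did not overlap. Mitochondrially encoded genes took 20.3%, 13.5% and 9.11% of the counts of the untreated libraries and 38.2%, 8.83% and 16% of those of the treated ones, which overlapped. The subunits that rose were 25 of 35 of complex I (median 1.59), 4 of 4 of complex II (2.06), 9 of 9 of complex III (2.08), 13 of 14 tested of complex IV (2.01) and 13 of 14 of complex V (1.77). Of the 10 factors 4 rose and 1 fell (median 0.93).

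**Figure D1:**
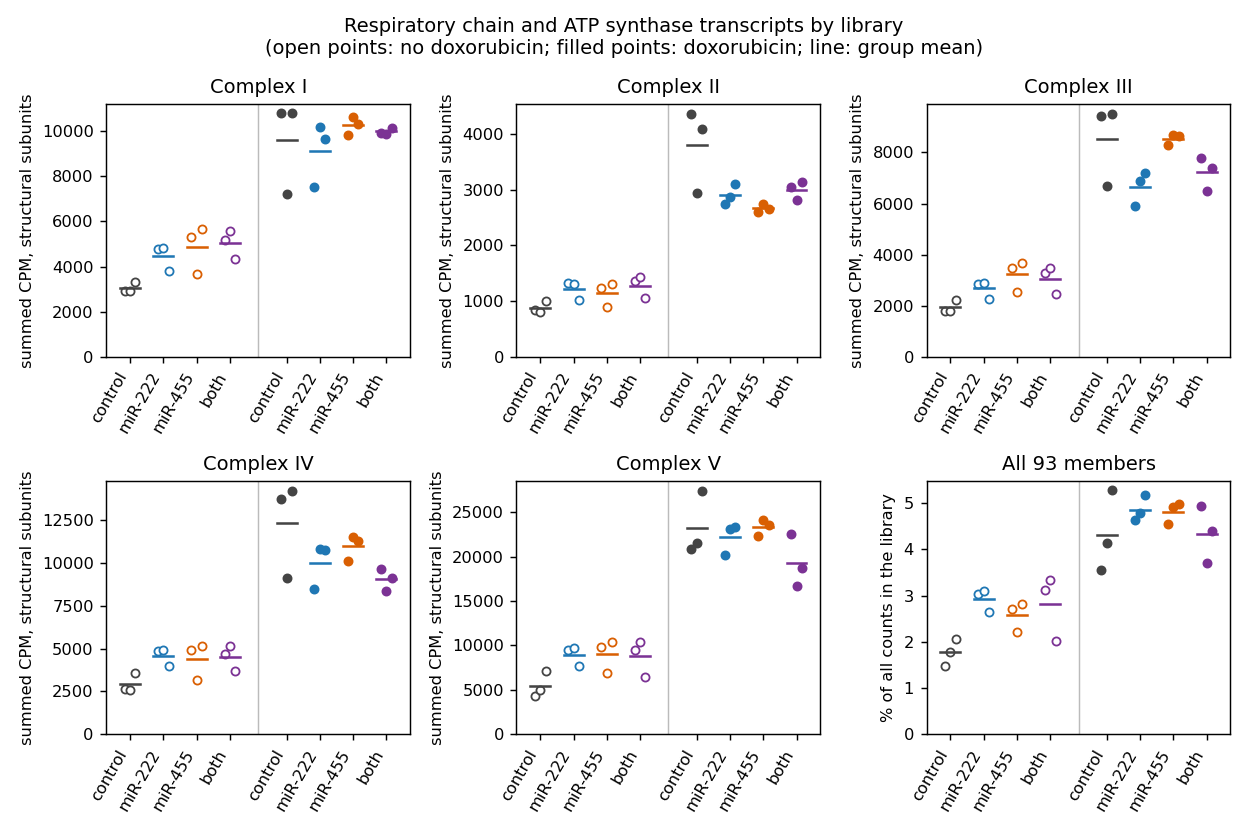
Summed CPM of the structural subunits of complexes I to V, and the share of all counts taken by the 93 members in percent, for each of the 24 libraries, with the group mean as a line. With the control mimic the members took 1.49% to 2.07% of counts without doxorubicin and 3.55% to 5.29% with it, and the mimic groups without doxorubicin reached 2.03% to 3.34%.

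With the 4 libraries of fewest genes left out, 68 members rose and 2 fell, and 67 of the called members were the same. When only the 2 groups were fitted, 44 were called. When libraries were scaled by their totals alone, the median of all genes fell by 0.65 on the log2 scale and that of the members was 1.03, with 49 higher and 6 lower.

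The 4 genes of complex II all rose, by similar amounts. Sdha, the flavoprotein that oxidises succinate, stood at 410, 373 and 457 CPM with the control mimic alone and at 2240, 1580 and 1920 CPM with doxorubicin. Every treated library lay far above every untreated library. Its log2 fold change of 2.21 ± 0.18 had the lowest adjusted p of all members, 1.44e-07. The iron-sulphur subunit Sdhb (2.17 ± 0.28), and the membrane anchors Sdhc (1.95 ± 0.23) and Sdhd (1.85 ± 0.26) followed.

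In complex III, Uqcr11, a small subunit, rose from 30.8, 42.3 and 140 CPM to 242, 537 and 743 CPM (2.84 ± 0.64, adjusted p = 0.00248). The groups did not overlap, and both spread widely. Uqcrc1, a core subunit, rose by 2.37 ± 0.45 and Cyc1, the cytochrome c1 that passes electrons to cytochrome c, by 2.37 ± 0.74. Cyc1 overlapped between groups, at 41.4, 113 and 302 CPM against 299, 832 and 1230 CPM, and its call was lost without replicate 1 or 2 of the control mimic alone or replicate 3 of doxorubicin with it. The smallest rises were those of the hinge subunit Uqcrh (1.61 ± 0.35) and of Uqcrb (1.68 ± 0.56).

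In complex IV the tested muscle forms rose with the forms found in all tissues. The muscle form Cox7a1 was not tested. Cox8b rose by 2.89 ± 0.83 and Cox6a2 by 2.64 ± 0.77, both forms of heart and skeletal muscle, while Cox8a rose by 2.19 ± 0.63 and Cox6a1 by 1.51 ± 0.45. Treated and untreated libraries overlapped for Cox6a2 and Cox8a. Cox6b1 went from 146, 189 and 334 CPM to 870, 998 and 1490 CPM (2.33 ± 0.35, adjusted p = 7.12e-05). The treated libraries again lay above all untreated ones. Ndufa4, first counted to complex I and now known as a subunit of complex IV, rose by 2.19 ± 0.28, Cox4i1 by 2.06 ± 0.37 and Cox5a by 1.4 ± 0.24. Cox4i2, the form of Cox4 that low oxygen induces, was the tested subunit that was not called (1.09 ± 0.82).

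In complex V, Atp5f1e, a small subunit of the central stalk, rose from 44.5, 92.1 and 134 CPM to 387, 599 and 727 CPM (2.66 ± 0.38, adjusted p = 4.05e-05). Atp5f1b, the catalytic beta subunit, rose by 2.37 ± 0.32 and Atp5mg, a membrane subunit, by 2.24 ± 0.24. The 3 genes for the c-ring protein differed more in certainty than in size: Atp5mc3 (1.42 ± 0.23) and Atp5mc1 (1.70 ± 0.63) passed the test, the latter with adjusted p = 0.0492, and Atp5mc2 (1.62 ± 0.68) did not. Atp5if1, the inhibitor that stops the enzyme from running backwards, rose by 0.96 ± 0.29, less than any called subunit of the complex.

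Complex I held both large rises and genes that did not pass. The largest rises were those of Ndufv1, which binds NADH (2.46 ± 0.56), and the accessory subunits Ndufb2 (2.38 ± 0.37) and Ndufa7 (2.38 ± 0.74). Of the 7 nuclear core subunits, those that carry out the redox reaction, 4 rose, and of the 28 accessory subunits 21 did. The remaining 10 structural subunits were not called, and 3 of them had values below 0. Ndufb7 stood at 107, 87.7 and 78.9 CPM without and 62.8, 35.3 and 56.9 CPM with doxorubicin. Its treated libraries were all lower, but the change of −0.82 ± 0.36 did not pass (adjusted p = 0.0957). Ndufa8 (−0.46 ± 0.31) and Ndufb9 (−0.32 ± 0.30) also had values below 0. With scaling by library totals Ndufb7 (−1.56) and Ndufa8 (−1.15) passed as lower.

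The assembly factors of complex I included the largest fall. Ndufaf4, which acts early in assembly, was the single member that fell. It stood at 54.8, 46.3 and 40.1 CPM with the control mimic alone and at 7.77, 7.68 and 11.5 CPM with doxorubicin. All treated libraries lay far below the untreated ones, and the log2 fold change was −2.39 ± 0.35 (adjusted p = 5.04e-05). Ndufaf3 (1.01 ± 0.29) and Ndufaf7 (1.16 ± 0.31) rose, and Ndufaf1 (0.02 ± 0.39), Ndufaf2 (0.89 ± 0.42), Ndufaf5 (−0.59 ± 0.36), Ndufaf6 (−0.45 ± 0.34) and Ndufaf8 (1.29 ± 0.57) were not called. RefSeq names 5 pseudogenes after Ndufaf4, and 92 after 41 of the members, so reads could be shared with such copies. With scaling by library totals Ndufaf3 (0.30) and Ndufaf7 (0.36) lost their calls and Ndufaf5 (−1.38) and Ndufaf6 (−1.12) passed as lower.

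**Figure D2:**
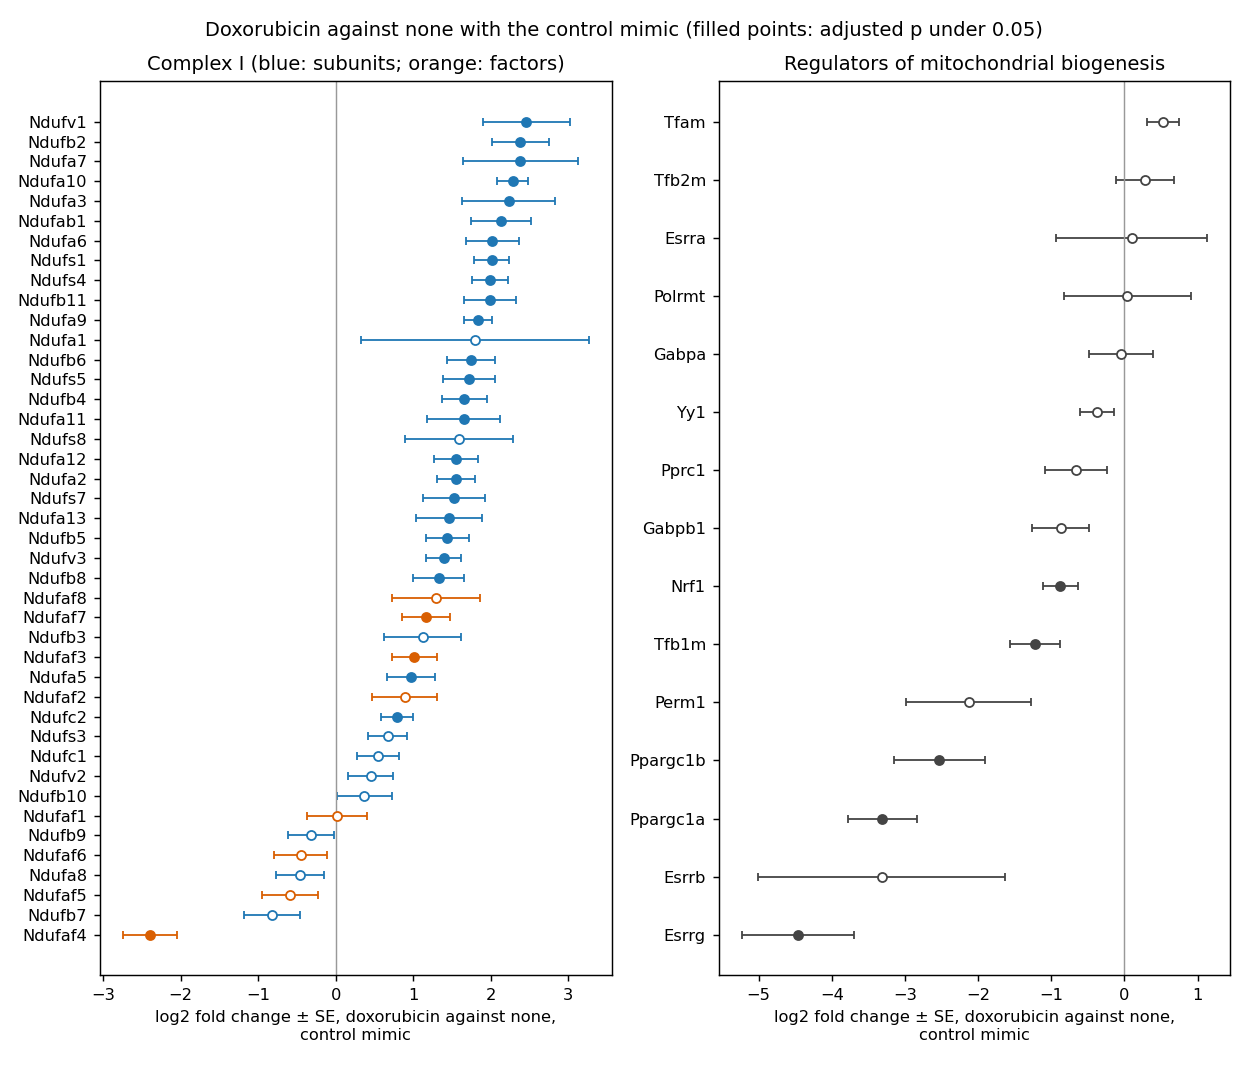
Log2 fold change ± SE for doxorubicin against none with the control mimic, for tested complex I members (left; subunits and factors in different colours) and for 15 regulators of mitochondrial biogenesis (right), with filled points for genes that passed the test. Ndufaf4 lies at −2.39 while most subunits lie between 1 and 2.5, and every regulator that passed lies below 0.

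Lists of genes around the complexes are read against the same shares, and several lie near them. Of the electron carrier and ubiquinone synthesis genes 10 of 17 rose and none fell, among them Etfa (2.27 ± 0.21), which takes electrons from fatty acid oxidation, and the ubiquinone synthesis enzyme Coq7 (1.65 ± 0.18). Among assembly factors outside the symbol rule, 4 of 5 for complex V rose, led by Atpaf2 (2.47 ± 0.30) and Tmem242 (1.95 ± 0.32). Of 23 for complex IV 6 rose, with Cox15 (1.58 ± 0.17) and Cox11 (1.27 ± 0.23) the firmest, and Cox10 fell (−1.01 ± 0.35). Of 11 further factors for complex I 4 rose, led by Acad9 (1.88 ± 0.16) and Aifm1 (1.69 ± 0.18), and Timmdc1 fell (−0.90 ± 0.21). For complexes II and III the factors that rose were 1 of 4, Sdhaf2 (0.70 ± 0.22), and 3 of 6, led by Uqcc1 (0.87 ± 0.24) and Ttc19 (0.81 ± 0.24). Of 8 tested markers of mitochondrial mass 5 rose, led by Immt (1.82 ± 0.23) and citrate synthase, Cs (2.25 ± 0.37), whereas the channel genes Vdac2 (0.18 ± 0.21) and Vdac3 (−0.32 ± 0.22) and the import receptor Tomm20 (−0.11 ± 0.31) were not called. Of the 13 mitochondrially encoded subunits 2 rose, Mt-co1 and Mt-atp8, near the 15.2% of all tested genes that rose, and the median was 1.21.

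Among 15 regulators of mitochondrial biogenesis doxorubicin with the control mimic lowered 5 and raised none, where 12.3% of all tested genes fell. Ppargc1a, the coactivator best known for switching on these genes, stood at 37.4, 23.0 and 20.9 CPM without and 2.73, 2.11 and 3.36 CPM with doxorubicin. The groups lay far apart, with a log2 fold change of −3.31 ± 0.47 (adjusted p = 3.41e-05). Also lower were Esrrg, a nuclear receptor that it works with (−4.46 ± 0.77), its relative Ppargc1b (−2.53 ± 0.62), the mitochondrial rRNA methyltransferase Tfb1m (−1.22 ± 0.34) and the transcription factor Nrf1 (−0.88 ± 0.24). Tfam, which packages mitochondrial DNA, was not called (0.53 ± 0.22). Ppargc1a, Ppargc1b and Esrrg also fell with each of the mimics. Their log2 fold changes, in that order, were −2.41, −2.96 and −3.63 with miR-222, −2.11, −3.80 and −4.18 with miR-455 and −2.85, −3.18 and −2.51 with both.

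With the mimics, doxorubicin also raised members of every complex. With miR-222 38 rose and 1 fell (14.6% of all tested genes called, median of the members 1.01). With miR-455 45 rose and 2 fell (18.1%, median 1.12), and with both mimics 35 rose and 1 fell (15.1%, median 0.81). Sdha was at 1560, 1520 and 1630 CPM with doxorubicin and miR-222 against 607, 599 and 494 CPM without doxorubicin. With miR-455 it was at 1080, 1130 and 1090 CPM against 412, 360 and 462 CPM, and with both mimics at 1470, 1650 and 1670 CPM against 570, 596 and 510 CPM. In none of these groups did treated and untreated libraries overlap.

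Cell type markers shifted in these comparisons too. The cardiomyocyte sums, without and with doxorubicin, were 25100 to 26500 and 20400 to 36700 CPM with miR-222, 42600 to 56000 and 34600 to 38200 with miR-455, and 26000 to 31000 and 24500 to 69100 with both. The fibroblast sums were 16600 to 18600 and 24900 to 27700, 25400 to 28500 and 29200 to 30700, and 14800 to 20400 and 16200 to 26900 CPM. The endothelial sums were 32.6 to 36.9 and 17.6 to 19.4, 30.4 to 40.3 and 25.8 to 28.5, and 16.7 to 29.4 and 11.5 to 22.9 CPM. Those of smooth muscle were 1230 to 2190 and 1290 to 2840, 2720 to 2880 and 1560 to 2010, and 1410 to 3090 and 1590 to 4470 CPM, and the leukocyte sums were at most 3.09 CPM. With miR-455 the cardiomyocyte, endothelial and smooth muscle sums were thus lower with doxorubicin and the fibroblast sums higher, without overlap. With miR-222 the fibroblast sums were higher and the endothelial sums lower, also without overlap. With both mimics the sums of each cell type overlapped. Of the 11 cardiomyocyte markers 3 rose and 1 fell with miR-222, 2 and 4 with miR-455, and 3 and 1 with both, and no fibroblast marker was called. Of all tested genes 7.76% rose and 6.87% fell with miR-222, 9.02% and 9.11% with miR-455, and 7.85% and 7.24% with both. The part of these shifts in the members' changes was not tested.

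Across the 4 doxorubicin comparisons, which share no library, 27 members rose in each (4.12% of all tested genes), 15 were called in none (63.1%), and Ndufaf4 fell in each (3.13%), with −1.63 ± 0.34, −1.93 ± 0.34 and −1.66 ± 0.34 with miR-222, miR-455 and both. Among those that rose in each were Sdha, Sdhb and Sdhc, Ndufs1, Ndufa9 and Ndufa10 of complex I, Cox6b1 and Ndufa4 of complex IV, and Atp5f1b, Atp5mg and Atp5po of complex V. The log2 fold change was largest with the control mimic in 77 of the 88, against 39.7% of all tested genes. Sdhd did not follow the other complex II genes, with 0.30 ± 0.25, 0.62 ± 0.25 and 0.19 ± 0.25 with miR-222, miR-455 and both, none of which passed. Ndufb10, an accessory subunit, fell with miR-455 (−1.04 ± 0.35, adjusted p = 0.0442), the other fall in that comparison beside Ndufaf4.

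**Figure D3:**
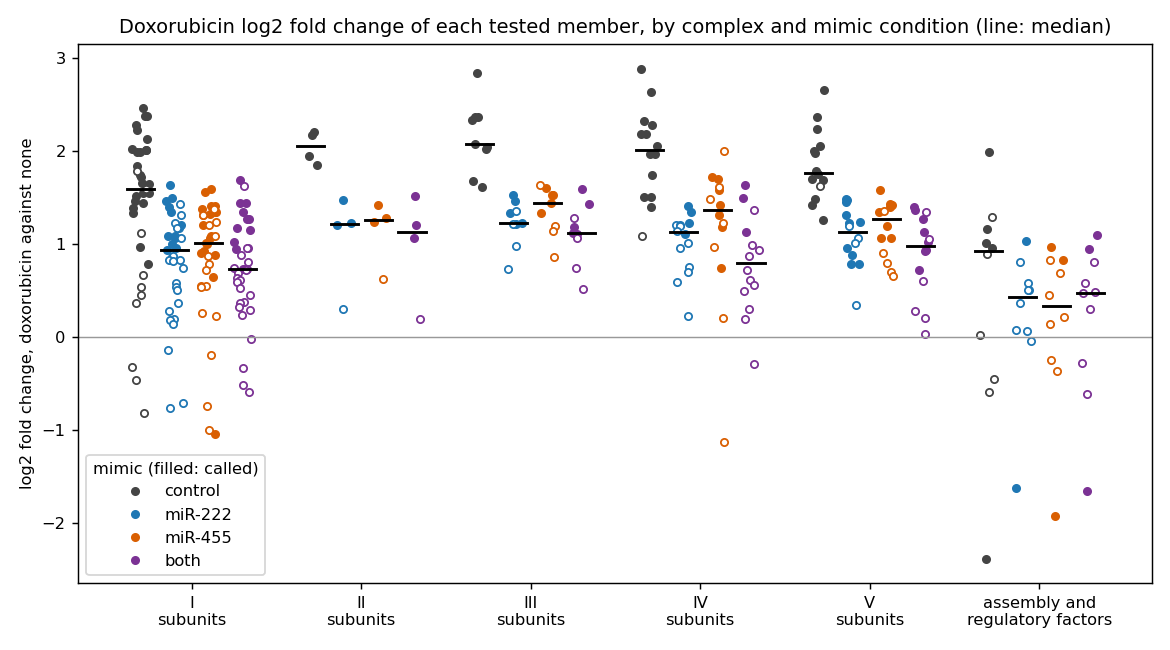
Log2 fold change for doxorubicin against none of every tested structural subunit by complex, and of the 10 assembly and regulatory factors, in the 4 mimic conditions, with filled points for calls and a line at the median. Medians for the subunits lie at 1.59 to 2.08 with the control mimic and at 0.73 to 1.44 with a mimic.

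The counts with a mimic depended on the fit. Scaling by library totals gave 18 higher and 3 lower with miR-222, 27 higher and 6 lower with miR-455, and 16 higher and 4 lower with both; with the 4 libraries of fewest genes left out they came to 60, 70 and 45 called, and with only the groups compared they were 61 with miR-222 and 0 with both. Leaving out replicate 3 of miR-222 alone gave 23, replicate 2 or 3 of doxorubicin with miR-222 gave 25, replicate 1 of both mimics alone gave 21, and replicate 3 of doxorubicin with both gave 22.

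Whether the response to doxorubicin itself differed between mimics was tested as a difference of the log2 fold changes. These comparisons share the control mimic libraries. No member was called for miR-222 (0.0489% of all tested genes called), for miR-455 (0%) or for both (0.0559%) by edgeR. At an unadjusted p under 0.05 there were 20, 15 and 36 members, where 9.82%, 10.6% and 14% of all tested genes passed. DESeq2 called 2, 2 and 3 members, and 1.43%, 0.944% and 2.59% of all tested genes. The median differences were −0.78, −0.68 and −0.79, against −0.07, −0.07 and −0.10 over all tested genes, and 80, 79 and 79 of the 88 values were below 0. The smallest p-values belonged to Sdhd for miR-222 (−1.55 ± 0.35, adjusted p = 0.102), followed by Atp5mg (−1.0 ± 0.32), to Cox6a1 for miR-455 (−2.63 ± 0.63, adjusted p = 0.171), followed by Sdhd (−1.23 ± 0.35), and to Sdhd for both (−1.66 ± 0.35, adjusted p = 0.0754), followed by Ndufb2 (−1.77 ± 0.50). Without replicate 3 of both mimics alone 10 members were called as a smaller response with both mimics, and with the 4 libraries of fewest genes left out 8 were, and 1 for miR-455.

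The response differences are set beside the levels of each group. Without doxorubicin, the members' share of counts was 3.04%, 3.10% and 2.64% with miR-222, 2.72%, 2.21% and 2.82% with miR-455 and 3.12%, 3.34% and 2.03% with both, against at most 2.07% with the control mimic. With doxorubicin the shares were 4.63%, 4.78% and 5.18%, 4.56%, 4.91% and 4.98%, and 4.93%, 3.71% and 4.39%, all within the range of the control mimic. Without doxorubicin replicate 3 of both mimics overlapped the control mimic group, and the other mimic libraries lay above it. These shares were not tested.

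Without doxorubicin, all members that passed for a mimic against the control mimic were higher, and their number depended on the test. By edgeR there were 4 for miR-222 (8.97% of all tested genes called), 10 for miR-455 (4.72%) and 10 for both (7.06%), with medians of 0.64, 0.71 and 0.70 against 0.06, 0.06 and 0.07 over all genes. DESeq2 called 20, 33 and 24 members, all higher (16.6%, 13.4% and 13.2% of all tested genes). At an unadjusted p under 0.05 there were 37, 47 and 45, all higher (27.7%, 25.6% and 22.8%). Ndufc1, an accessory subunit of complex I, rose in all 3, from 13.6, 14.2 and 12.4 CPM with the control mimic to 31.9, 29.2 and 21.6 CPM with miR-222, 27.9, 26 and 36 CPM with miR-455 and 34.1, 40.0 and 22.1 CPM with both. No mimic library overlapped the control libraries. The log2 fold changes were 1.04 ± 0.27, 1.16 ± 0.27 and 1.26 ± 0.27. The 3 comparisons share the control libraries.

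With miR-222 the others were Ndufs4, an accessory subunit (0.87 ± 0.22), and Cox5a (0.88 ± 0.23) and Cox4i2 (2.73 ± 0.85) of complex IV. With miR-455 they were Uqcr10 (1.16 ± 0.28), Ndufa10 (0.78 ± 0.19), Atp5mg (0.90 ± 0.23), Ndufs7 (1.53 ± 0.40), Ndufc2 (0.77 ± 0.21), Ndufaf3 (1.04 ± 0.29), Ndufb6, Ndufb9 (1.09 ± 0.30) and Cox6b1 (1.21 ± 0.34). With both mimics they were Ndufs4 (1.08 ± 0.22), Cox5a (0.92 ± 0.23), Ndufv2 (1.16 ± 0.30), Ndufa9, Ndufaf3 (1.03 ± 0.29), Ndufa2, Ndufb9 (1.06 ± 0.30), Ndufaf2 (1.44 ± 0.42) and Ndufb6. For the combination beyond the sum of the single effects no member was called by edgeR (0.014% of all tested genes), with a median of −0.61, 22 at an unadjusted p under 0.05 (18.4% of all tested genes) and 0 by DESeq2 (1.74%). The smallest p-values were those of Uqcr10 (−1.11 ± 0.40, adjusted p = 0.214) and Cox6b1 (−1.28 ± 0.48).

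Cell type markers moved in the same comparisons. Of 8 fibroblast markers 3, 2 and 3 fell with miR-222, miR-455 and both and none rose, although the sum with miR-455, given above with the others, lay within the range of the control mimic. The endothelial and smooth muscle sums lay below those of the control mimic in each mimic group, without overlap, with 1 endothelial marker higher for miR-222 and 2, none and 1 of 7 smooth muscle markers lower. In these comparisons 4.5%, 2.47% and 3.67% of all tested genes rose and 4.47%, 2.25% and 3.39% fell. The cardiomyocyte sums with miR-455 lay above those of the control mimic. Their part in the members' changes was not tested.

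The counts moved with single libraries. Leaving out replicate 1, 2 or 3 of the control mimic alone gave 1, 0 and 16 for miR-222, 0, 0 and 23 for miR-455, and 3 and 2 for both without replicates 1 and 2. Leaving out replicate 1 or 2 of miR-222 gave 0, replicate 1 or 3 of miR-455 gave 0 and replicate 2 gave 34, and replicate 1 or 2 of both gave 1 and replicate 3 gave 34. Fits of only the groups compared gave 0 in all 3.

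With doxorubicin, 5 members passed for miR-222 against the control mimic (3 higher and 2 lower, 3.95% of all tested genes called), 8 for miR-455 (4 and 4, 2.5%) and 6 for both (4 and 2, 5.55%). The medians were −0.14, 0.09 and −0.12, and those of all genes 0.00, 0.02 and −0.06. The members that were higher were all of complex I, and those that were lower belonged to complexes I, II and IV. In these comparisons 2, 1 and 1 of 8 fibroblast markers fell and none rose, and 2, none and none of 11 cardiomyocyte markers fell. Of all tested genes 2.36%, 1.85% and 2.78% fell. Of 4 endothelial markers 1 fell in each, and the endothelial sums with miR-222 and with both lay below those of the control mimic without overlap. Their part was not tested.

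Ndufb9, Ndufc1 and Ndufv2 were higher with each mimic, in 3 comparisons that share the same 3 control libraries. Ndufb9, an accessory subunit, stood at 121, 71.3 and 141 CPM with doxorubicin and the control mimic, and at 194, 541 and 364 CPM with miR-222, 334, 353 and 342 CPM with miR-455 and 357, 523 and 417 CPM with both. All mimic libraries lay above all control libraries. Its log2 fold changes were 1.72 ± 0.31, 1.63 ± 0.31 and 1.96 ± 0.31. Ndufc1 followed with 1.46 ± 0.27, 1.18 ± 0.27 and 1.46 ± 0.27, and Ndufv2, a core subunit of the NADH-binding module, with 1.31 ± 0.30, 1.29 ± 0.30 and 1.87 ± 0.30. These 3 were not called for doxorubicin with the control mimic, a comparison that uses the same 3 control libraries. The assembly factor Ndufaf6 was higher with miR-455 (1.51 ± 0.34) and with both (1.55 ± 0.34), and stood at 0.82 ± 0.34 with miR-222, which did not pass.

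Sdhd was lower with miR-222 and with both mimics. With doxorubicin it stood at 591, 428 and 696 CPM with the control mimic, 181, 209 and 234 CPM with miR-222, 359, 387 and 373 CPM with miR-455 and 244, 181 and 207 CPM with both. The groups that received miR-222, alone or in the combination, lay below all libraries of the other doxorubicin groups. The log2 fold changes against the control mimic were −1.46 ± 0.25 with miR-222 (adjusted p = 0.00171), −0.62 ± 0.25 with miR-455 (adjusted p = 0.294) and −1.44 ± 0.25 with both (adjusted p = 0.00147). Without doxorubicin the 4 groups overlapped, at 138, 150 and 188 CPM with the control mimic and 190, 183 and 134 CPM with miR-222. Ndufa10, an accessory subunit, was also lower with miR-222 (−0.72 ± 0.19, adjusted p = 0.0371).

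Cox6a1, the Cox6a form of most tissues, was lower with miR-455. With doxorubicin it stood at 452, 596 and 1130 CPM with the control mimic, 845, 1310 and 1290 CPM with miR-222, 68.9, 82.5 and 82.6 CPM with miR-455, and 414, 237 and 258 CPM with both. The miR-455 libraries lay below every other library of the series, and those of both mimics lay between. The change against the control mimic was −3.22 ± 0.48 (adjusted p = 0.000605) with miR-455 and −1.26 ± 0.45 (adjusted p = 0.105) with both. Its muscle relative Cox6a2 stood at 1420, 1530 and 1580 CPM in the same miR-455 libraries and did not pass (0.10 ± 0.73). Of the counts of both genes together Cox6a2 took 94.9% to 95.4% there and 50.8% to 71.8% with doxorubicin and the control mimic. The counts were not adjusted for length, so these shares serve only to compare libraries. RefSeq names 2 pseudogenes after Cox6a1.

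Without doxorubicin Cox6a1 stood at 198, 115 and 197 CPM with miR-455, 614, 619 and 537 CPM with miR-222 and 134, 206 and 428 CPM with the control mimic. The miR-455 libraries overlapped the control libraries and lay below those of miR-222. miR-455 was therefore also set directly against miR-222, a comparison added after these values were seen. Without doxorubicin Cox6a1 was the single member called (−1.79 ± 0.45, adjusted p = 0.0401, 2.3% of all tested genes called), a call lost when any library of either group was left out. With doxorubicin 6 members were called, against 3.57% of all tested genes. Cox6a1 (−3.88 ± 0.49, adjusted p = 8.21e-05), Ndufb10 (−1.57 ± 0.35) and the core subunit Ndufs3 (−1.04 ± 0.26) were lower with miR-455, and Ndufa11 (2.06 ± 0.48), Ndufa10 (0.81 ± 0.19) and Ndufc2 (0.76 ± 0.21) were higher. Leaving out replicate 1, 2 or 3 of miR-222 gave 3, 2 and 2 members, and of miR-455 2, 1 and 1.

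Ndufb2 was lower with miR-455 and with both mimics under doxorubicin, at 53.8, 54.8 and 61.8 CPM and 67.1, 21.8 and 43.4 CPM, against 123, 120 and 218 CPM with the control mimic. Its libraries did not overlap those of the control mimic. The changes were −1.44 ± 0.36 (adjusted p = 0.0343) and −1.80 ± 0.36 (adjusted p = 0.0046). Sdha (−0.80 ± 0.17) and Ndufs3 (−1.10 ± 0.26) were the others lower with miR-455. For the combination beyond the sum of the single effects with doxorubicin no member was called by edgeR (0.0419% of all tested genes), 17 had an unadjusted p under 0.05 (11.5% of all tested genes) and DESeq2 called 2 (1.32%). The smallest p-values were those of Ndufs3 (1.29 ± 0.36, adjusted p = 0.216) and Sdha (0.82 ± 0.24), and the median was −0.08.

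**Figure D4:**
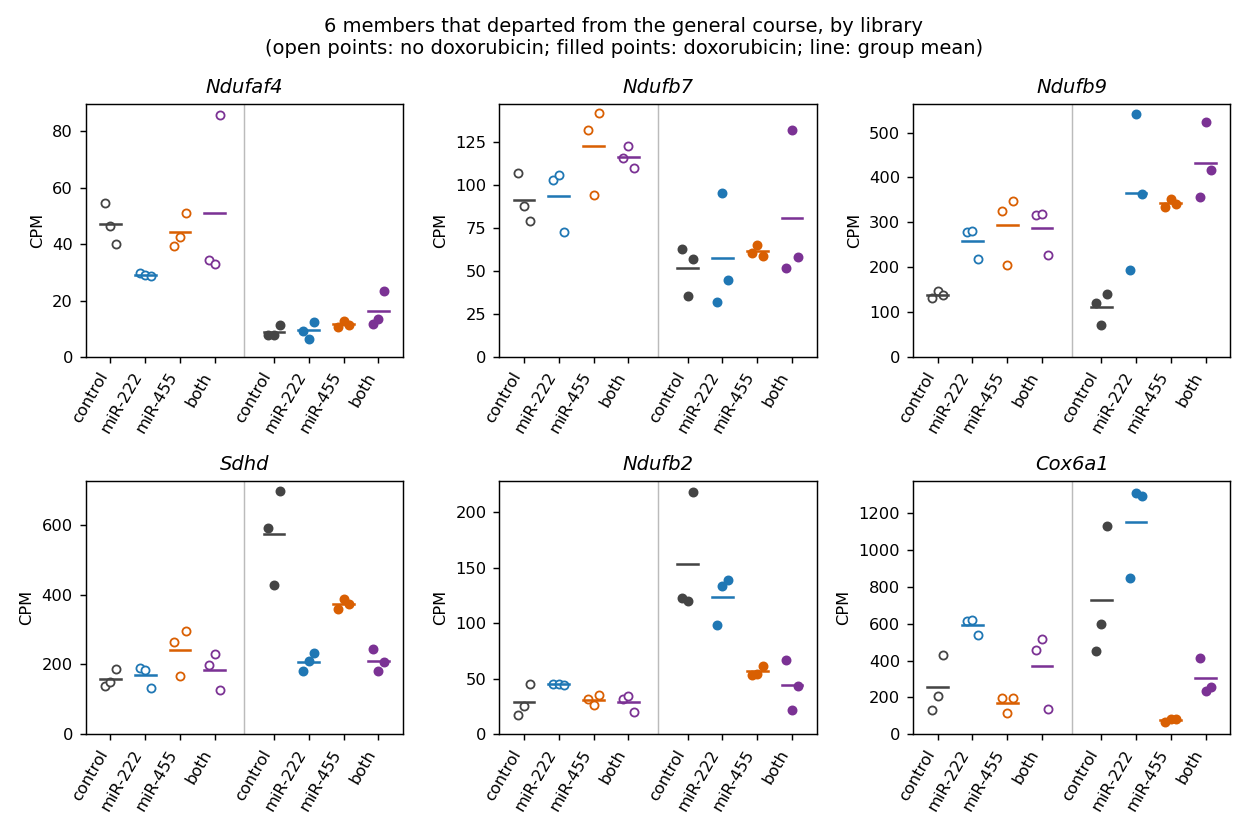
CPM of 6 members in every library, with the group mean as a line; open points are without and filled points with doxorubicin. Ndufaf4 is low in all doxorubicin libraries, and among the doxorubicin groups Ndufb9 is lowest with the control mimic, Sdhd is low in those with miR-222, Ndufb2 in those with miR-455, and Cox6a1 is lowest with miR-455, at 68.9 to 82.6 CPM.

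Of the 50 values named for a mimic against the control or the other mimic that passed, 2 kept their call under all 14 alternatives run for each, and both were Cox6a1 with doxorubicin and miR-455, against the control mimic (−3.48 to −2.74) and against miR-222 (−4.06 to −3.77). Both rest on the 3 libraries of doxorubicin with miR-455, which lay very close to each other. The calls of Sdhd with miR-222 and with both, Ndufb9 in all 3, and Ndufb2, Ndufc1 and Ndufv2 with both were each lost in 1 alternative, the fit of only the groups compared, with adjusted p = 0.07 and 0.158 for Sdhd. The fit of only the groups compared takes its spread from those groups alone. With doxorubicin, no member was called in it for miR-222 or for both, and only Cox6a1 for miR-455. For miR-455 with doxorubicin, 4 members were called without replicate 1 of the control mimic and 2 without any replicate of miR-455. For miR-222, 8 were called without replicate 2 of the control mimic and 3 without replicate 2 or 3 of miR-222. With scaling by library totals the split was 3 higher and 1 lower for miR-222, 4 and 2 for miR-455, and 8 and 2 for both.

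Libraries of a group differed along a shared course. The first principal component of the members' deviations from their group means held 62.5% of the variance, and 57 of the 88 tested members had a positive and 31 a negative sign along it, several of them close to 0. Cyc1 stood at 41.4, 113 and 302 CPM with the control mimic alone, where Cox6c, a small subunit of complex IV, stood at 766, 457 and 286 CPM. With both mimics alone Cyc1 stood at 499, 580 and 54.9 CPM and Cox6c at 335, 351 and 1230 CPM. The library low in Cyc1 was high in Cox6c. With doxorubicin and the control mimic, replicate 1 was low in Cyc1, at 299 against 832 and 1230 CPM, and high in Cox6c, at 3890 against 845 and 1160 CPM. The mitochondrially encoded share was highest in the library with the least Cyc1 in both control mimic groups, given above, with both mimics alone, at 8.16%, 6.82% and 24.9%, and in 2 further groups. It was lowest in that library in both miR-222 groups, where Cyc1 stood at 405, 407 and 308 CPM beside shares of 9.18%, 9.34% and 8.7% without doxorubicin, and at 751, 891 and 970 CPM beside 8.61%, 12.7% and 10.5% with it, and lay between in doxorubicin with miR-455. Over all libraries, the correlation of the component score with the within-group deviation of the mitochondrially encoded share was −0.77. The part of this share in the differences between libraries was not tested.

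The forms tied to low oxygen varied between libraries as well, partly along the same course. Their correlation with the first component was 0.73 for Ndufa4l2 and 0.69 for Cox4i2. Ndufa4l2, a relative of Ndufa4, was listed at 0, 0 and 1.83 CPM with the control mimic alone, 21.3, 21.4 and 2.07 CPM with miR-222, 12.6, 2.28 and 12.6 CPM with miR-455 and 20.8, 21.0 and 0.229 CPM with both. Cox4i2 stood at 25.5, 24.9 and 3.05 CPM with miR-222, 25.3, 7.09 and 24.5 CPM with miR-455 and 25.3, 25.9 and 5.31 CPM with both. The same library of each mimic group was low in both genes. In these libraries the mean log2 CPM of 17 genes known to be induced by low oxygen was 6.15, 6.65 and 6.21, against 8.31 to 8.68 in the other libraries of the 3 groups and 5.78, 5.81 and 7.7 with the control mimic. Ndufa4l2 did not pass for any mimic (4.62 ± 1.61, 3.92 ± 1.57 and 4.53 ± 1.6), and the call of Cox4i2 with miR-222 was lost in 8 of 14 alternatives. What set these libraries apart was not tested.

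**Figure D5:**
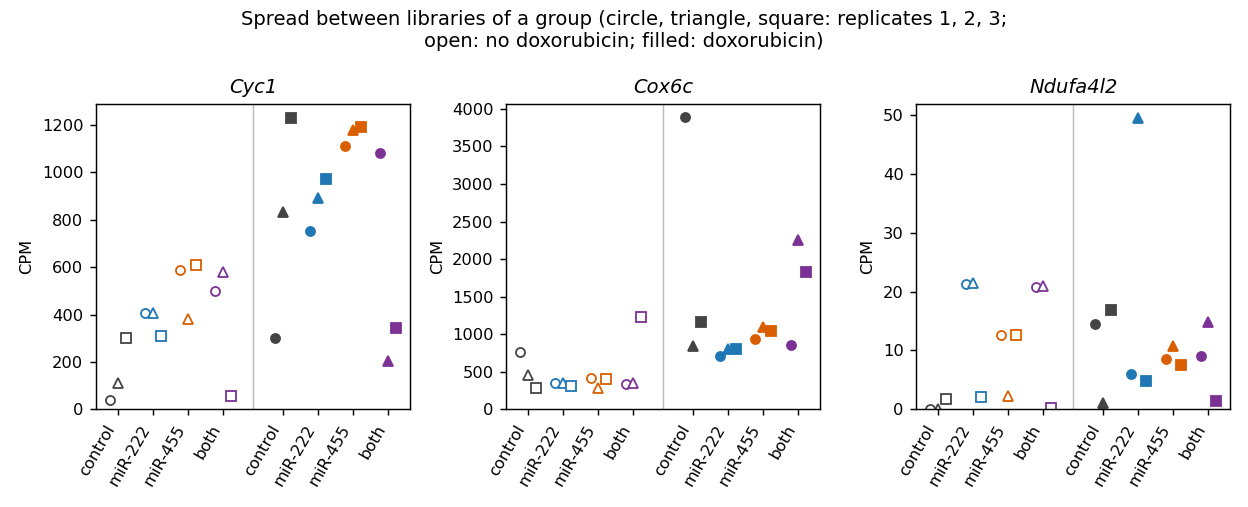
CPM of Cyc1, Cox6c and Ndufa4l2 in every library, with replicates 1, 2 and 3 as circles, triangles and squares, open without and filled with doxorubicin. Cyc1 and Cox6c run in opposite order among the libraries of the control mimic alone (41.4, 113 and 302 CPM against 766, 457 and 286 CPM). Ndufa4l2 is near 0 in all libraries of the control mimic alone. It is also low in replicate 3 of miR-222 alone and of both mimics alone, and in replicate 2 of miR-455 alone.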

How the data were processed

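PolyA RNA was sequenced in 24 libraries, 8 groups of 3. The deposited table gives the authors' expected counts per gene symbol, of which 7.35% were not whole and were rounded. Per the submitters' processing notes Salmon, DESeq2 and the rat build Rnor_6.0 were used; no versions are stated there, nor how the table was filtered. Totals were 17311949 to 25750309 counts per library.

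The analysis used R 4.3.3 and edgeR 4.0.16: filterByExpr by group, TMM scaling, 1 coefficient per group fitted to all 24 libraries with a shared spread, and the quasi-likelihood F test with Benjamini-Hochberg adjustment within each comparison. A call is an adjusted p under 0.05. SE is |log2 fold change| over √F. The procedure was tested on simulated counts, with the same spread for every gene and changes in 1 group only. That setting lacks the unequal spread and the shared course of these libraries, so it cannot vouch for the calls. The members were sorted into complexes and roles by hand, by function.

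Named were, per complex, the 3 subunits with the largest and 2 with the smallest change with doxorubicin and the control mimic, members called in a mimic comparison (or the 2 with the smallest p), paralogs, the Sdh and Ndufaf genes and the untested members, and from each other list 2 called genes in each direction. Within the rule, which genes are dwelt on, and further genes named as examples, were chosen after their values were seen. The members and lists were chosen with earlier results of these data known. The comparison of miR-455 with miR-222 was added after the values were seen. Leaving out the 4 libraries of fewest genes was set in advance of this fit, from the earlier results.

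Alternatives were DESeq2 size factors, library totals, DESeq2 1.42.0, no filter, 1 CPM in 3 libraries, only the groups compared, a replicate block, leaving out each library, and leaving out those 4. Sequences came from RefSeq (GRCr8). Coordinates are of that build, not of Rnor_6.0. The values of 1 member that enters the counts are not reported here.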

Additional observations from a re-analysis of the deposited data

How the results depend on the processing

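The values below are numbers of the 88 tested members called, with the main number given in the report. No direction of a named value reversed among called values, and of the 126 named values that passed, 36 kept their call in all 14 alternatives run for each, 34 of them for doxorubicin. Causes of the shifts were not tested. With library totals the numbers were 21 for doxorubicin with miR-222, 20 for doxorubicin with both, 9, 2 and 19 for miR-222, miR-455 and both without doxorubicin, 10 for both with doxorubicin and 2 for miR-455 against miR-222 without it. With the DESeq2 test they were 20, 33 and 24 for miR-222, miR-455 and both without doxorubicin, 10 for miR-222 with it, 2, 2 and 3 for the differences in response, 2 for the combination beyond the sum with doxorubicin, and 3 and 12 for miR-455 against miR-222 without and with it. Without a filter they were 5 for miR-455 and 5 for both without doxorubicin, and with 1 CPM in 3 libraries 2 for miR-455 against miR-222 without it. With only the groups compared they were 44, 61 and 0 for doxorubicin with the control mimic, miR-222 and both, 0, 0 and 0 for the mimics without doxorubicin, 0, 1 and 0 with it, and 2 and 34 for miR-455 against miR-222. Without the 4 libraries with the fewest genes they were 60 for doxorubicin with miR-222, 18 and 32 for miR-455 and both without doxorubicin, 8 and 14 for miR-222 and both with it, 1 and 8 for the differences in response with miR-455 and both, and 6 and 18 for miR-455 against miR-222. Leaving out each library gave 52 to 71, 23 to 40, 32 to 38 and 21 to 37 for doxorubicin with the control mimic, miR-222, miR-455 and both, 0 to 16, 0 to 34 and 1 to 34 for the mimics without doxorubicin, 3 to 8, 2 to 7 and 5 to 9 with it, 0 to 0, 0 to 0 and 0 to 10 for the differences in response, 0 to 0 for both sums, and 0 to 1 and 1 to 3 for miR-455 against miR-222. With a replicate block the numbers were 67 for doxorubicin with the control mimic, 3 for miR-455 without doxorubicin and 0 for miR-455 against miR-222 without it. The numbers do not pair the libraries: over 84 pairs with the same number the median correlation of deviations was −0.0132, and 6 of 24 libraries lay closest to their own number. Low counts left 5 members, such as Cox7a1 with 36 counts over all libraries, untested.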
